A study of Mus musculus with 18 samples.

Results

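The adipocyte minus stromal-vascular difference of brown fat was set against the same difference of inguinal fat, gene by gene, on 12 of the 18 arrays of the series. The mice were young adult male C57BL/6 animals, and no treatment or allele is given for any group. Interscapular brown fat and inguinal (subcutaneous) fat were each separated into floating adipocytes and the stromal-vascular cells (SVF), and each of the 4 groups had 3 arrays. Fat was minced and digested with collagenase, the floating cells were taken as adipocytes, and the pellet, after lysis of erythrocytes, was taken as SVF. The series describes its arrays as biological triplicates, and the labels do not say whether a replicate is 1 mouse or a pool, or whether both fractions of a replicate share mice. The floating layer was not sorted, so both fractions can hold other cells.

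Levels are on a log2 scale relative to the 75th percentile of each array's processed signals, so 0 is that percentile. A fraction difference is the adipocyte mean minus the SVF mean of a depot, and the interaction is the brown fraction difference minus the inguinal one. A negative interaction therefore means that a gene leaned further toward the SVF in brown fat than in inguinal fat. Genes with an adjusted p under 0.05 in limma's test of the interaction were called, over 18068 genes tested.

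Mature adipocytes store lipid in a droplet and float, whereas the SVF holds the vessel wall, fibroblast-like progenitors, nerve-associated cells and leukocytes. Brown adipocytes are rich in mitochondria and make heat through the uncoupling protein Ucp1, and inguinal fat is a white depot that can acquire such cells. Vascular smooth muscle and its relatives contract through a shared set of actin, myosin and accessory proteins. Transcription of that set depends on serum response factor, which binds a motif known as the CArG box, and on its partner myocardin.

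The 75th percentile signal of the 12 arrays ran from 338 to 1056, no spot was saturated, and 49.6 to 72.2% of spots were well above background. The array labelled inguinal SVF replicate 1 went against its label. Its Xist level was 4.98, where the other 11 arrays lay at or below -4.57 and were not above background, and its Ddx3y level was -6.50 where the others lay from 0.18 to 1.65. The same array held mesothelial RNA, with Msln at 6.16 and Wt1 at 4.45, both below background on inguinal SVF replicates 2 and 3. The counts of calls, the lists and every named gene were therefore also computed without it. The 3 inguinal adipocyte arrays sat on 3 slides of their own, were scanned on other days and were read with another version of the image software than the other 9. For these arrays, group, slide, scan day and software cannot be told apart. Adipoq, which marks adipocytes, lay at 7.41 to 8.79 on the 6 adipocyte arrays and at 0.65 to 7.16 on the 6 SVF arrays, the highest of these being brown SVF replicate 2. In bulk RNA of this kind, fewer cells of a type and less RNA per cell cannot be told apart.

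The interaction was called for 184 genes (1.02% of those tested), and most of them leaned toward the SVF in brown fat alone. For 154 genes the brown fraction difference was the lower (0.852%), with a median interaction of -3.23, and for 30 it was the higher (0.166%), with a median of 2.01. The median over all genes tested was 0.07. The calls carried 183 symbols, since Synpo2 was called under 2 array names. Without the array labelled inguinal SVF replicate 1 there were 251 calls, of which 150 were among the 184. Single arrays moved the count by more than 1.5 times. It fell to 93 without inguinal adipocyte replicate 1, 97 without brown SVF replicate 3, 102 without brown SVF replicate 1, 105 without brown adipocyte replicate 1 and 121 without inguinal adipocyte replicate 2. It rose to 409 without inguinal SVF replicate 2 and to 433 without inguinal adipocyte replicate 3. Of the 154 genes with the lower brown difference, 78 were called whichever of the 12 arrays was left out, and of the 30 with the higher brown difference 6 were.

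Among the 154, the brown fraction difference passed alone for 111, the inguinal difference alone for 19, both in opposite directions for 20 (0.133% of all genes) and both in the same direction for 4. Over all genes, 13.6% passed with higher adipocytes and 9.15% with higher SVF in brown fat, and 10.0% and 5.47% did so in inguinal fat. All 3 brown SVF arrays lay above all 3 brown adipocyte arrays for 143 of them (18.2% of all genes tested). In inguinal fat, the fractions overlapped for 90 (72.4% of all genes) and the adipocyte arrays all lay above the SVF arrays for 55 (17.1%). Fraction order was opposite in the 2 depots, without overlap in either, for 44 (0.493%). The interaction is built from these differences, so the counts describe the called genes and give no separate support.

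**Figure D1:**
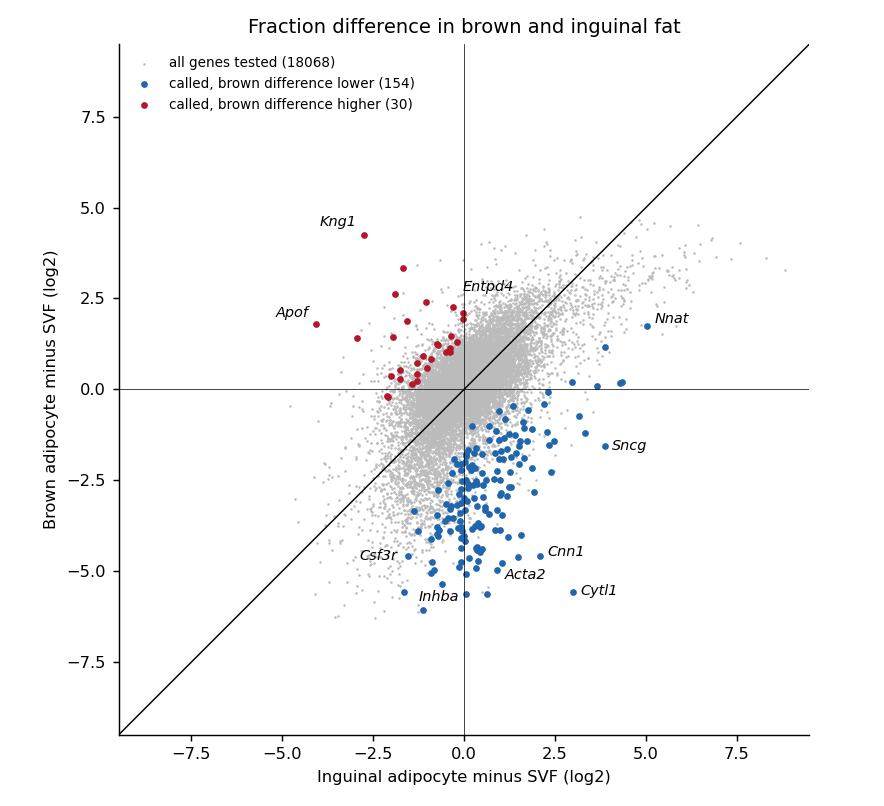
Each point is 1 of 18068 genes, with the inguinal adipocyte minus SVF difference on the horizontal axis and the brown one on the vertical axis, both in log2, and the diagonal marking equality. The 154 blue genes lie below the diagonal, most near 0 in inguinal fat and far below 0 in brown fat, and the 30 red genes lie above it.

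To say which group mean set a gene, a group was named where the gap from its mean to the nearest of the other 3 exceeded the range of those 3. Low brown adipocytes set 61 of the 154 genes with the lower brown difference (39.6%, against 8.48% of all genes), and high brown SVF set 29 (against 3.81% of all genes). High inguinal adipocytes set 10 (6.49%, against 4.13%) and low inguinal SVF set 3 (1.95%, against 5.27%), and no single group set 51 (33.1%, against 51.2%). High brown adipocytes set 12 of the 30 genes with the higher brown difference (40.0%, against 10.9%). Low inguinal adipocytes set 8 of them (26.7%, against 7.07%), high inguinal SVF 3 (10.0%, against 5.44%), and no single group set 7. Low brown SVF, which set 3.72% of all genes, set none of them. In each direction the sign of the interaction admits these 4 classes and no others. The shares over all genes count both signs, so for a class set by a group they understate its share among genes of 1 sign. Of all genes, 8359 had a negative interaction, and high inguinal adipocytes set 746 and low brown adipocytes 1532. An excess of called genes over such a share is therefore overstated. None is shown for high inguinal adipocytes or high inguinal SVF. For the 30, all 3 brown adipocyte arrays lay above the brown SVF arrays in 23 (30.0% of all genes). With a gap of over 0.5 times the range in place of the whole range, 73 genes were set by low brown adipocytes, 46 by high brown SVF and 12 of the 154 by no single group. Of the 150 genes called with and without the array labelled inguinal SVF replicate 1, 129 kept the same class. The 10 and 8 genes set by inguinal adipocytes rest on the arrays whose slides and software were their own.

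Depot comparisons within a fraction hold the same interaction, as the adipocyte depot difference minus the SVF one, so their counts restate the calls. Of the 154, 117 were lower in brown than in inguinal adipocytes (6.58% of all genes were) and 72 were higher in brown than in inguinal SVF (2.27%). Of the 30, 27 were higher in brown adipocytes (7.16%), and 2 were lower in brown SVF (0.565%). For 53 of the 154, no brown adipocyte array was well above background, so the low end of those differences is a bound. The interactions of these genes have no measured size, and their class of driving group rests in part on values below background.

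**Figure D2:**
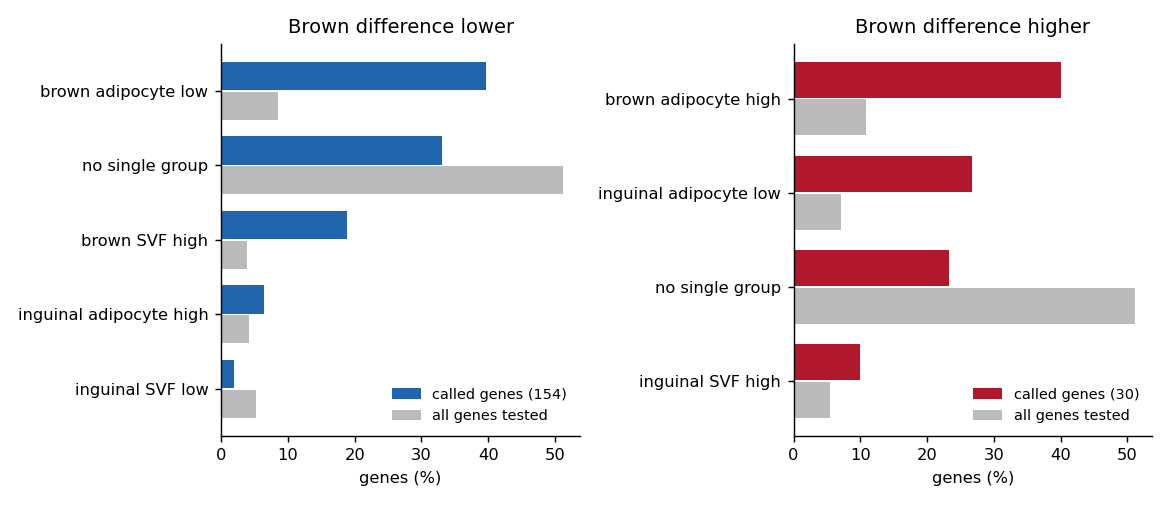
Bars give the share of genes set by each group mean, for the 154 called genes with the lower brown difference (left, blue) and the 30 with the higher one (right, red). Grey bars give the share over all 18068 genes tested, of both signs. Low brown adipocytes lead on the left at 39.6%, and high brown adipocytes lead on the right at 40.0%.

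Smooth muscle contractile genes held more calls than any other list examined. Of 23 listed members, all tested, 14 had a lower brown difference (0.852% of all genes did), none a higher one, and 9 did not pass. Their median interaction was -2.83 against 0.07 over all genes, and their median fraction difference was -2.34 in brown fat and 0.40 in inguinal fat. The 14 were Cnn1, Itga8, Acta2, Myh11, Lmod1, Tagln, Myl9, Tpm2, Myocd, Mylk, Ppp1r14a, Pgm5, Synpo2 and Tpm1. Over the other settings tried, between 12 and 17 members were called, all with the lower brown difference, and without the array labelled inguinal SVF replicate 1 the count was 15. In the depot comparisons, 15 of the 23 were higher in brown than in inguinal SVF (2.27% of all genes) and 11 were lower in brown than in inguinal adipocytes (6.58%).

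The gene with the largest interaction in this list was Cnn1, which encodes calponin, an actin-binding protein of smooth muscle. Its level was 3.02, 2.91 and 3.70 on the brown SVF arrays and -0.89, -2.51 and -0.72 on the brown adipocyte arrays. In inguinal fat it was 1.86, 1.61 and 1.62 on the adipocyte arrays and 1.03, -1.47 and -0.73 on the SVF arrays. The fractions did not overlap in either depot and stood in opposite order. The brown difference was -4.58 (adjusted p = 0.000182) and the inguinal one 2.08 (adjusted p = 0.0296), with an interaction of -6.67 ± 0.84 (SE, adjusted p = 0.000731). The array labelled inguinal SVF replicate 1 was the highest of its group, and without it the interaction was -7.38 (adjusted p = 0.000185). No single group set Cnn1: the 4 means stepped down from brown SVF through inguinal adipocytes and inguinal SVF to brown adipocytes.

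Acta2, smooth muscle alpha-actin, followed the same order of means. Brown SVF arrays read 6.72, 6.63 and 6.84 and brown adipocyte arrays 2.09, 0.95 and 2.30. Inguinal adipocyte arrays read 5.14, 4.52 and 4.79 and inguinal SVF arrays 4.45, 3.79 and 3.46. All 4 groups were separate, so brown adipocytes were the low end and brown SVF the high end on every array. The interaction was -5.87 ± 0.64 (SE, adjusted p = 0.000268) and -6.15 without the array labelled inguinal SVF replicate 1. The inguinal difference alone, 0.92, did not pass (adjusted p = 0.18).

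Different probes of Acta2 gave the same sign but different sizes. The probe used, the brightest, gave -5.87, and the other probes well above background on all 12 arrays gave -6.27 and -1.49. Of the 2 remaining, 1 was above background on 9 arrays (-5.22) and 1 on 3 arrays, so its -1.53 is not a measured size. The probe that gave -1.49 matches coding sequence across a splice junction, at chr19:34314502-34317756 on the minus strand of mm8, where its ends lie 3255 bases apart. Coding sequence is closely alike among actin genes, and whether this probe also reads other actins was not tested. The probe is shown beside that of Sncg, which likewise spans a junction (chr14:33202461-33203554, minus strand of mm8), in lower case throughout since no base is singled out.
Acta2 junction probe: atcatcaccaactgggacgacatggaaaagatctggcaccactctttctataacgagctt
Sncg probe: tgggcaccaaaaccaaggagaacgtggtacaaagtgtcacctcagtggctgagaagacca

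Myh11, the smooth muscle myosin heavy chain, was set by high brown SVF. It read 4.29, 4.32 and 4.50 there, -0.32, -0.78 and 0.04 in brown adipocytes, 1.91, 1.46 and 1.90 in inguinal adipocytes and 1.38, 1.56 and 1.20 in inguinal SVF. The inguinal fractions overlapped, while brown SVF stood above every other array. The interaction was -5.10 ± 0.49 (SE, adjusted p = 8.1e-05), and the brown SVF mean exceeded the inguinal SVF mean by 2.99 (adjusted p = 0.000513). Tpm2, a tropomyosin, was set by the same group with an interaction of -4.06 (adjusted p = 0.00353). Jph2, a junctional membrane protein of muscle outside the list, also was, with -3.91 (adjusted p = 0.000296).

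With all arrays, Tagln, which encodes the actin-binding protein transgelin, was set by low brown adipocytes instead. Without the array labelled inguinal SVF replicate 1, which raises the inguinal SVF mean, no single group set it. Brown adipocyte arrays read 2.77, 1.88 and 2.72, against 6.22, 6.16 and 6.60 in brown SVF. Inguinal adipocyte arrays read 5.99, 5.35 and 5.04 and inguinal SVF arrays 5.47, 4.14 and 3.78. The inguinal fractions overlapped through the array labelled inguinal SVF replicate 1. The interaction was -4.87 ± 0.56 (SE, adjusted p = 0.00034) with all arrays and -5.37 without that array. Another Tagln probe above background on all 12 arrays gave -5.16, and no single group set its means.

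Other called members carried related roles. Myocd, the gene of myocardin, had an interaction of -4.05 (adjusted p = 0.0125) and was set by high brown SVF, with no brown adipocyte array above background. Its level in brown SVF was at least 10.2-fold that in brown adipocytes. Itga8, an integrin subunit of contractile cells, had -6.25 (adjusted p = 0.000296), with 1 brown adipocyte array above background. Lmod1, which nucleates actin filaments in smooth muscle, had -4.88 and Myl9, a regulatory myosin light chain, -4.23. Actc1, the cardiac alpha-actin, is not on the list and had -5.83 (adjusted p = 0.00084). Among the 9 members that did not pass, Pln, the calcium pump regulator phospholamban, had -3.28 (adjusted p = 0.0605) and Des, the gene of the filament protein desmin, 0.01 (adjusted p = 0.995). Myocd, Lmod1, Myl9, Pln and Des fell outside the rule for named genes and were chosen after their values were seen.

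**Figure D3:**
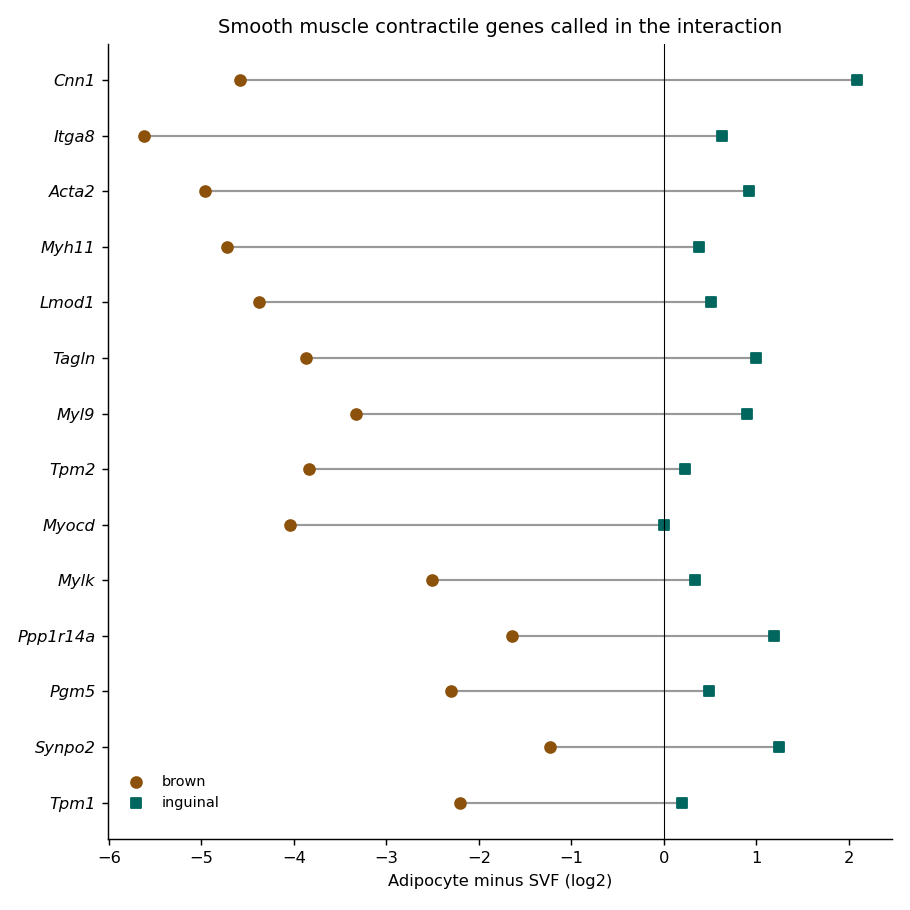
For each of the 14 called smooth muscle contractile genes, the brown (circle) and inguinal (square) adipocyte minus SVF differences are joined by a line, in log2. All 14 lie below 0 in brown fat and at or above 0 in inguinal fat.

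Promoters of 4 of these genes are shown because the genes moved together and CArG boxes are the known shared element of contractile genes. They are the 200 bases before the RefSeq start site (GRCm38.p6), 5′ to 3′ on the gene's strand, with capitals marking matches to the CArG box and sites 1 base off it within the central A or T run. Actc1 lies at chr2:114052876-114053075 (minus strand), Myl9 at chr2:156775264-156775463 (plus), Acta2 at chr19:34255374-34255573 (minus) and Cnn1 at chr9:22099053-22099252 (plus).
Actc1: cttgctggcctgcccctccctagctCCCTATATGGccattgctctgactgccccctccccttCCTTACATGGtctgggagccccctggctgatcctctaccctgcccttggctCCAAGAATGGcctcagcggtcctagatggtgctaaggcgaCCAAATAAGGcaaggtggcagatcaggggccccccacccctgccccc
Myl9: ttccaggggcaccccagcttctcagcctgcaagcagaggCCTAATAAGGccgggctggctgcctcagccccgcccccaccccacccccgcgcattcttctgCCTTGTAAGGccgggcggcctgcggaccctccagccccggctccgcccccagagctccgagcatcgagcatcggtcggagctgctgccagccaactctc
Acta2: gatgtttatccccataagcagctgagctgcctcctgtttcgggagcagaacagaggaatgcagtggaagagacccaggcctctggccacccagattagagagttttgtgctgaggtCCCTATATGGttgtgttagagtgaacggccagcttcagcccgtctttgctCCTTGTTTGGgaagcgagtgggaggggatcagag
Cnn1: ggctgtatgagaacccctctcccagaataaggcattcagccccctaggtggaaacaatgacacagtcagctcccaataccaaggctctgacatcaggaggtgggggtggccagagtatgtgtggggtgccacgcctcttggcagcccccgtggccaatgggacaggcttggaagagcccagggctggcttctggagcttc

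Exact CArG boxes began 47 bases before the start site in Actc1 and 161 bases before it in Myl9. Acta2 held sites 1 base off at 84 and 34 bases, and Cnn1 held neither kind in this window. Over the 250 bases before and 50 after each start site, an exact box (read on either strand, as it reads alike on both) was found in 535 of 32851 promoters (1.63%). It was found in 9 of 127 promoters of genes with a lower brown difference (7.09%), in 7 genes of the 108 matched: Fhl2, Rnd3, Actc1, Myl9, Ptprr, Asb2 and Myom1. None of 15 promoters of genes with a higher brown difference held it, and 1 of 20 promoters of the contractile list did. Sites 1 base off were found before the start site in 10.2% of the promoters of genes with a lower brown difference and in 8.50% of all promoters. A match describes letters only.

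Sncg, gamma-synuclein, is a small protein of peripheral neurons that white adipocytes also make, and its order of means differed from that of the contractile genes. Inguinal adipocyte arrays read 2.86, 2.91 and 3.82, and brown adipocyte arrays 0.13, 0.05 and -0.82. Brown SVF arrays read 1.24, 1.40 and 1.39, and inguinal SVF arrays -1.18, 0.09 and -0.95. Inguinal adipocytes were the highest group, brown SVF came next, and brown adipocytes and inguinal SVF overlapped below both. The brown difference was -1.56 (adjusted p = 0.00618), the inguinal one 3.87 (adjusted p = 0.000112) and the interaction -5.43 ± 0.51 (SE, adjusted p = 8.1e-05). It was -5.18 without the array labelled inguinal SVF replicate 1.

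**Figure D4:**
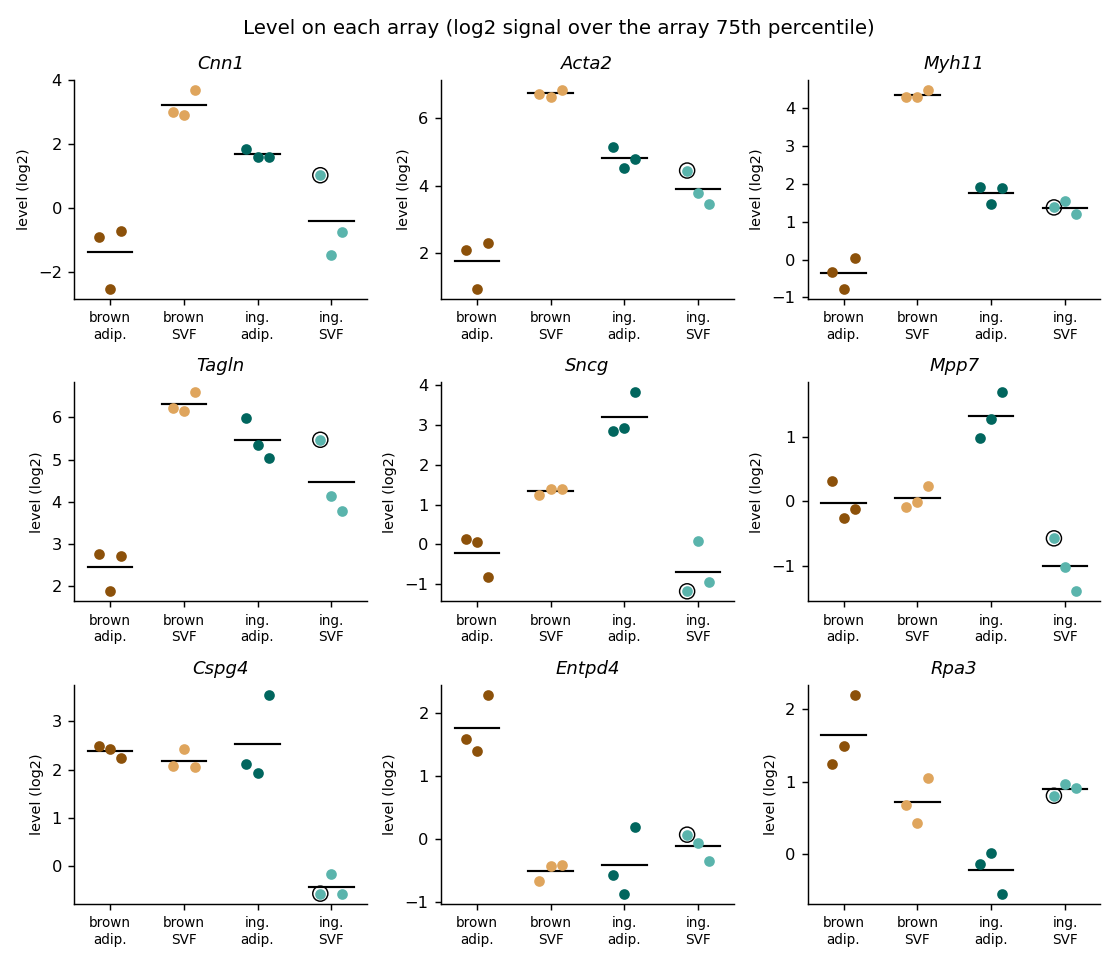
Each panel gives 1 gene's level (log2 signal over the array's 75th percentile) on the 3 arrays of each of the 4 groups, with a line at the group mean and a ring around the array labelled inguinal SVF replicate 1. Brown SVF leads for Cnn1, Acta2, Myh11 and Tagln, inguinal adipocytes lead for Sncg and Mpp7, and inguinal SVF is low for Cspg4. Brown adipocytes are high for Entpd4, and for Rpa3 brown adipocytes are high and inguinal adipocytes low.

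Genes set by low brown adipocytes included single members of several stromal lists, where 0.852% of all genes had a lower brown difference. Vwf, the von Willebrand factor of endothelium, was called with -3.14 (adjusted p = 0.00201) and was the only 1 of 14 endothelial genes to be called. Its levels were 0.51 to 1.43 in brown adipocytes and 2.88 to 4.37 on the other 9 arrays. The endothelial list did not share this: 3 members were higher (7.16% of all genes) and 1 lower (6.58%) in brown than in inguinal adipocytes. Its summed level (signal over the 75th percentile) was 414 to 578 in brown adipocytes and 245 to 318 in inguinal adipocytes. Col15a1, a basement membrane collagen, had -2.67 (adjusted p = 0.0188), the only called gene of 20 in the progenitor and fibroblast list. Cd163, a scavenger receptor of resident macrophages, had -3.83 (adjusted p = 0.0391), the only called gene of 17 in the macrophage list. Dpt, the matrix protein dermatopontin, had -3.04 (adjusted p = 0.0483). It is on the white adipocyte list and on no stromal one, although its inguinal means were 4.41 in adipocytes and 4.48 in SVF. Of 12 fits that each left out 1 array, the call was lost in 5 for Col15a1 (adjusted p of up to 0.0704), 9 for Cd163 (up to 0.121) and 10 for Dpt (up to 0.133). Dpt also lost it without the array labelled inguinal SVF replicate 1 (0.0588).

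Some called genes were not above background on any brown adipocyte array. Inhba, an activin subunit, read -0.28, -0.28 and -0.10 on the brown SVF arrays and was at least 14.2-fold higher there than in brown adipocytes, against the lowest well-measured signal of those arrays. Its inguinal fractions differed by 0.06 (adjusted p = 0.943). The interaction of Inhba passed at -5.69 (adjusted p = 0.000296), a size that is not measured. Its class, low brown adipocytes, rests on a mean of -5.85 there, below the lowest well-measured signal of those arrays (-4.05 on average). With -4.05 as that mean, the class of Inhba would be high brown SVF. Without the array labelled inguinal SVF replicate 1, no single group set Inhba. Hey2, a transcriptional repressor downstream of Notch, was at least 5.57-fold higher in brown SVF than in brown adipocytes, and only 1 inguinal SVF array was above background, so its inguinal difference of 1.56 (adjusted p = 0.018) has no measured size. Tbx1, a T-box factor, was at least 4.28-fold higher in brown SVF than in brown adipocytes. It read -0.18, 0.25 and -0.15 in inguinal adipocytes and -2.16, -1.45 and -0.12 in inguinal SVF. Its interaction passed at -5.28 (adjusted p = 0.000509), a size that is not measured, and low brown adipocytes set it.

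The Notch receptor Notch3, which vascular mural cells carry, was called with -2.46 (adjusted p = 0.00201) and was set by high brown SVF, at 3.58 to 4.00 against 1.33 to 2.51 on the other 9 arrays. It was 1 of 2 called members of the 10 pericyte genes tested (0.852% of all genes had a lower brown difference). Their median interaction was -1.76, against 0.07 over all genes. The other was Cspg4, the proteoglycan NG2, which low inguinal SVF set. Cspg4 read -0.57, -0.16 and -0.58 on the inguinal SVF arrays and 1.93 to 3.55 on the other 9, without overlap. Its interaction was -2.77 ± 0.47 (SE, adjusted p = 0.00856), the inguinal difference alone passed (2.97), and the brown fractions differed by 0.20 (adjusted p = 0.729). Clstn2, a synaptic membrane protein, and the kinase gene Cdk18 were the other two genes set by low inguinal SVF, with -3.55 and -2.32. Clstn2 lost its call in 2 of 12 fits that left out 1 array (adjusted p of up to 0.0704).

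High inguinal adipocytes set Mpp7, a scaffold protein of cell junctions. It read 0.98, 1.28 and 1.70 there, and from -1.40 to 0.31 on the other 9 arrays, without overlap. The inguinal difference was 2.32 (adjusted p = 0.000182), the brown one -0.07 (adjusted p = 0.876) and the interaction -2.39 ± 0.38 (SE, adjusted p = 0.00464). The other Mpp7 probes gave the same sign, but the class did not hold on all of them. On the other probe above background on all 12 arrays (-1.91), low inguinal SVF was the class. On 1 probe above background on 11 arrays (-0.57), the brown SVF mean, -3.00, lay above that of inguinal adipocytes, -3.12. Adcy5, an adenylate cyclase, was also set by high inguinal adipocytes and read 0.29, -0.19 and 1.67 there, against -4.74 to -1.19 elsewhere. Its interaction was -4.13 ± 0.91 (SE, adjusted p = 0.0428). The call was lost in 8 of 12 fits that left out 1 array (adjusted p of up to 0.0952). Both are high on the arrays read with the other software version, and group and software cannot be told apart for them.

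The white adipocyte list had 3 called genes of 16 tested (1.02% of all genes were called, in either direction), Sncg, Nnat and Dpt, and a median interaction of -1.98. Nnat, neuronatin, was higher in adipocytes than in SVF of both depots, by 1.74 in brown and 5.03 in inguinal fat. Its interaction of -3.29 (adjusted p = 0.0333) did not pass without the array labelled inguinal SVF replicate 1 (0.0569), and was lost in 8 of 12 fits that left out 1 array (up to 0.108). Of 11 Schwann cell and myelin genes tested, 2 were called, and over the other settings from 0 to 4 were called with the lower brown difference. Prx, periaxin, had -3.07 (adjusted p = 0.00496), and Gfra3, a receptor for a neurotrophic factor, had -2.65 (adjusted p = 0.0333) and lost its call in 7 of 12 fits that left out 1 array. Csf3r, the receptor for granulocyte colony-stimulating factor, was the only called gene of 8 neutrophil and monocyte genes, with -3.05 (adjusted p = 0.0241). It was at least 5.97-fold higher in brown SVF than in brown adipocytes, where no array was above background, and its call was lost in 6 of 12 fits that left out 1 array (adjusted p of up to 0.0807).

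Genes with a higher brown difference were fewer. Entpd4, a nucleotidase of the Golgi, read 1.60, 1.41 and 2.30 in brown adipocytes. It read -0.66, -0.43 and -0.41 in brown SVF, -0.57, -0.87 and 0.20 in inguinal adipocytes and 0.07, -0.06 and -0.35 in inguinal SVF. Brown adipocytes stood above every other array, and the other 3 groups lay within a narrow range. The interaction was 2.56 ± 0.42 (SE, adjusted p = 0.00592), and it was called whichever array was left out.

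High brown adipocytes also set Fastkd1 and Hspe1. Fastkd1, a mitochondrial RNA-binding protein, had 2.13 (adjusted p = 0.0274) and Hspe1, the small mitochondrial chaperonin, 1.98 (adjusted p = 0.0424). Mtif2, a mitochondrial translation initiation factor, had 1.83 (adjusted p = 0.0351), and Slirp, which binds mitochondrial transcripts, 1.43 (adjusted p = 0.0401). Mtif2 and Slirp fell outside the rule for named genes and were chosen after their values were seen. None of these 4 was called in every fit that left out 1 array, with adjusted p of up to 0.0916, 0.129, 0.105 and 0.127. Hspe1, Mtif2 and Slirp did not pass without the array labelled inguinal SVF replicate 1.

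Low inguinal adipocytes set Rpa3, a subunit of the single-strand DNA-binding complex, by a narrow margin. It read -0.13, 0.01 and -0.55 there, 1.24, 1.50 and 2.20 in brown adipocytes, 0.68, 0.43 and 1.05 in brown SVF and 0.81, 0.96 and 0.91 in inguinal SVF. Fraction order was opposite in the 2 depots without overlap. The brown difference was 0.93 (adjusted p = 0.0176), the inguinal one -1.12 (adjusted p = 0.0113) and the interaction 2.04 ± 0.37 (SE, adjusted p = 0.0125). Wars2, the mitochondrial tryptophan tRNA ligase, had 1.90 (adjusted p = 0.0188) and Rnf170, an E3 ubiquitin ligase, 1.71 (adjusted p = 0.0442), with 1 of 4 other Rnf170 probes of the opposite sign. The call was lost in 4 of 12 fits that left out 1 array for Wars2 (adjusted p of up to 0.0715) and in 10 for Rnf170 (up to 0.135), with 0.0705 without the array labelled inguinal SVF replicate 1. Pa2g4, a growth regulator, had 1.76 (adjusted p = 0.0481) with no single group setting it, and passed in 1 of 12 fits that left out 1 array.

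High inguinal SVF set Apof, a lipoprotein component, and Pitx1, a homeobox factor of the hindlimb. Apof read -3.59, -1.60 and -3.27 on the inguinal SVF arrays and was above background on no other array of the 4 groups. It was at least 6.34-fold higher in inguinal SVF than in inguinal adipocytes. Pitx1 read -0.79, -2.88 and -3.35 there, was above background on 2 inguinal adipocyte arrays and on no brown array. Its interaction passed (adjusted p = 0.0295), has no measured size because both brown groups were below background, and was lost in 6 of 12 fits that left out 1 array (adjusted p of up to 0.0952). The largest interaction in this direction belonged to Kng1, kininogen, with 7.01 (adjusted p = 0.00926), a brown difference of 4.25 and an inguinal one of -2.76. The largest in the other direction belonged to Cytl1, a secreted cytokine-like protein, with -8.56 (adjusted p = 0.000303), a brown difference of -5.57 and an inguinal one of 3.00. Kng1 and Cytl1 were outside the rule for named genes, since some of their arrays were not above background, and were chosen after their values were seen.

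Genes that define adipocytes were not called. None of 22 mature adipocyte genes passed, although all 22 had a negative interaction, with a median of -1.43, and the same holds for the 20 thermogenic genes, of which 13 were negative (median -0.35). Cidea read 4.89, 6.75 and 6.70 in brown SVF and -2.95, 0.14 and -1.19 in inguinal SVF, with an interaction of -5.53 ± 1.42 (SE, adjusted p = 0.0819). It passed in the fit on the 12 arrays alone (adjusted p = 0.0388), in the deposited matrix (0.0439) and without inguinal SVF replicate 2 (0.0395). Ucp1 read 8.11, 7.24 and 7.89 in brown adipocytes, 3.64, 4.50 and 4.30 in brown SVF, 1.99, 2.18 and 4.34 in inguinal adipocytes and -6.02, -4.08 and -6.26 in inguinal SVF. Its interaction was -4.69 ± 2.19 (SE, adjusted p = 0.352), and it passed in no other fit that tested it. The SD between arrays was 0.45 in each brown group, 1.31 in inguinal adipocytes and 1.20 in inguinal SVF. The SE of Ucp1 also draws on the spread of the epididymal arrays, so it does not describe these 4 groups alone. Of the 20 thermogenic genes, 12 were higher in brown than in inguinal SVF, and of the 22 mature adipocyte genes 3 were (2.27% of all genes). Summed levels, as signal over the 75th percentile, were 88.3 to 204 in brown and 13.8 to 16.1 in inguinal SVF for the thermogenic list. For the mature adipocyte list they overlapped, at 799 to 2108 and 406 to 811. The part of such transcripts in the called genes was not tested.

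Mitochondrial gene lists had small positive medians and no calls. The median was 0.73 over 44 respiratory chain and ATP synthase genes, 0.66 over 14 citrate cycle genes and 0.41 over 20 fatty acid oxidation genes. Of the 44 respiratory chain genes, 43 were higher in adipocytes than in SVF of brown fat (13.6% of all genes) and 37 in inguinal fat (10.0%). Lists of leukocyte and matrix genes had negative medians with few calls or none. The macrophage median was -2.55, the extracellular matrix median -1.66 and the progenitor and fibroblast median -1.24. All 24 matrix genes and all 17 macrophage genes had a negative interaction. Adgre1, the macrophage antigen F4/80, had -3.37 (adjusted p = 0.151), Ptprc, the leukocyte antigen CD45, -2.36 (adjusted p = 0.526) and Pdgfra, a progenitor marker, -2.07 (adjusted p = 0.276).

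Summed levels of a list, as signal over the array's 75th percentile, show how these cell markers were spread. The contractile list summed to 468 to 534 in brown SVF, 253 to 303 in inguinal adipocytes, 89.0 to 178 in inguinal SVF and 116 to 148 in brown adipocytes. The macrophage list summed to 14.2 to 56.4 in brown adipocytes and 130 to 183 in brown SVF. In inguinal fat it summed to 52.5 to 332 in adipocytes, with replicate 3 the lowest, and 183 to 299 in SVF. The pericyte list summed to 91.5 to 106 in brown SVF and 26.0 to 58.4 in inguinal SVF, and to 56.4 to 78.0 and 71.4 to 103 in brown and inguinal adipocytes. Inguinal adipocytes thus carried more contractile and macrophage transcripts than brown adipocytes, except that macrophage sums overlapped through inguinal replicate 3. The part of such cells in the interaction was not tested.

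**Figure D5:**
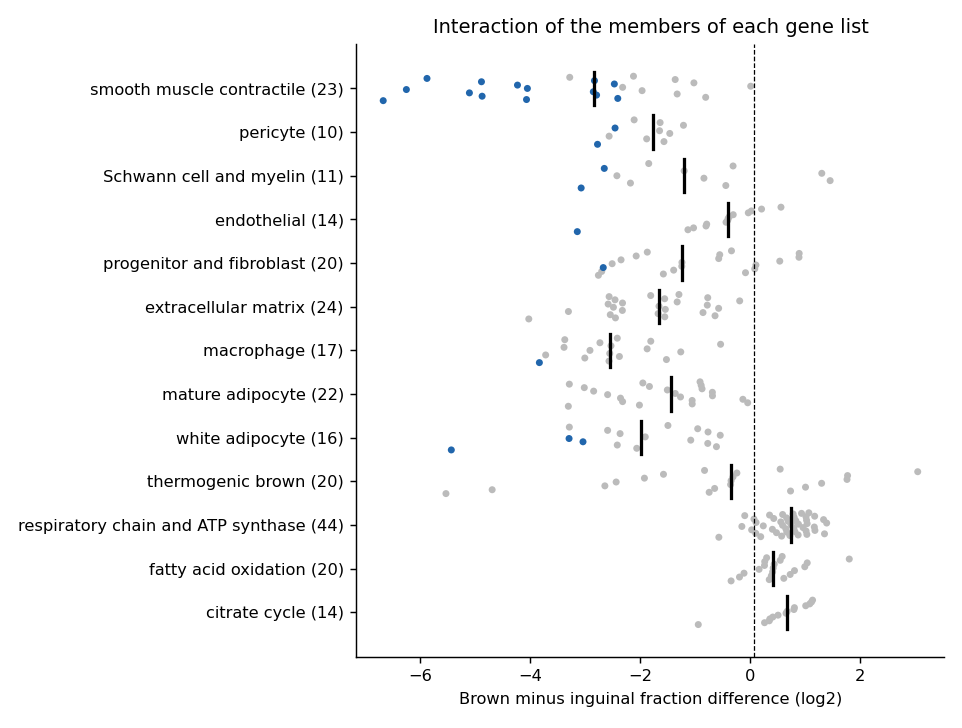
Each point is a member of a gene list, placed by its interaction (brown minus inguinal fraction difference, log2), blue where called with the lower brown difference and grey where not called. Bars mark list medians and the dashed line the median of all genes, 0.07. The contractile list reaches furthest to the left, with a median of -2.83, and the mitochondrial lists sit to the right of the line.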

How the data were processed

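RNA was hybridised to single-colour Agilent mouse arrays. The authors' deposited scanner files hold, per the file headers, Feature Extraction processed signals, which are background-corrected intensity values, with marks for spots above background. The deposited series matrix holds log2 values whose normalization is not given in the sources used here. After removal of control and outlier-marked spots, repeated spots were averaged and each processed signal was divided by its array's 75th percentile and put on a log2 scale. Of 41174 probes, 26970 were kept because every array of some brown or inguinal group had them well above background. A gene (array name, updated by accession for 24375 probes) is its brightest kept probe, giving 18068. Spots well above background and the number of arrays limit the precision.

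All 18 arrays were fitted with 6 group means in limma 3.58.1 (R 4.3.3, lmFit and eBayes, two-sided), with Benjamini-Hochberg adjustment over all genes. The fit was also run on simulated data with independent arrays and the same spread in every group, so that run does not cover groups of unequal spread. P-values rest on the spread between arrays within groups, pooled for each gene over all 6 groups, the epididymal ones included. The groups differed in spread, with estimated array weights of 0.428 for inguinal SVF and 1.35 for brown SVF, where a lower weight means more spread. The pooled spread can therefore understate that of inguinal SVF. Lower bounds use the lowest signal among probes well above background on the dim arrays. Named genes were the 3 largest per driving group and direction among called genes above background on all 12 arrays, the 4 largest set by no single group, the 3 largest per direction not above background in a group, up to 4 called genes per list, and some followed throughout. Some genes that the rule names are not reported here. For lists, counts and medians are given with no set test. Members, lists and rules were chosen with earlier results of these data known. Same-numbered arrays of different groups correlated from -0.30 to 0.38 in their deviations, so the numbers were not taken as pairs. Alternatives covered background correction, normalization, filters, probes, weights, blocks and leaving out each array.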

Additional observations from a re-analysis of the deposited data

Results flagged for a closer look

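In 6 of the genes chosen by the rule for named genes, the fraction difference passed the test in both depots with opposite signs, and the difference between depots passed as well. The interaction was -6.67 for Cnn1, -5.43 for Sncg, -5.55 for Hey2, -2.65 for Gfra3, 2.04 for Rpa3 and 1.76 for Pa2g4 (log2). Hey2 was above background on no brown adipocyte array and 1 inguinal SVF array, so its sizes are not measured. Among genes named outside the rule, both fraction differences also passed with opposite signs for Cytl1 (-8.56), Kng1 (7.01), Myl9 (-4.23), Rnd3 (-2.96), Ppp1r14a (-2.83) and Synpo2 (-2.47). For Synpo2 this held under 1 of its 2 called array names. Under the other, the interaction was -5.23 with no brown adipocyte array above background. Its inguinal difference there, 0.32, did not pass (adjusted p in limma = 0.553). Gfra3 missed the threshold in 7 and Pa2g4 in 11 of 12 fits that left out 1 array, with adjusted p in limma of up to 0.104 and 0.133. Over all genes, 24 (0.133%) had both fraction differences called in opposite directions.

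A signal outside the comparison stood out on the array labelled inguinal SVF replicate 1, where the probe of Xist, a transcript of the inactive X chromosome, read 4.98. The labels give male mice for every array, and the Y-linked genes Ddx3y, Kdm5d and Eif2s3y were below background on this array alone of the 12.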

How the results depend on the processing

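The number of calls was 184, with 30 higher and 154 lower in brown. It was 89 (5 and 84) with only the 12 arrays of the 4 groups fitted, and 107 (8 and 99) with array weights per group. It was 118, with 94 lower, among probes well above background on all 12 arrays. The normexp background correction on median signals gave 52 (4 and 48), and 106 (13 and 93) against negative controls. Both were chosen after seeing the data, since normexp on mean signals was not run: 12 files do not hold that column. They moved the median of all genes to 0.25 and 0.23. Leaving out 1 array gave 93 to 433 calls, 6 to 104 higher and 87 to 329 lower. Quantile normalization, the deposited matrix (of whose columns 4 of 18 best matched the array with their own replicate number), no filter, the mean over probes, and random blocks for slide or for scan day stayed within 1.5 times. The replicate block gave 172 calls (35 and 137) and, within depot, 238 (28 and 210).

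Signs turned for none of the called genes named in the report under any of these settings. Msln, not called, turned to 1.18 and 1.27 under the normexp settings and 0.51 in the deposited matrix, and ran from -6.19 to 0.54 with single arrays left out. Ddx3y turned to 0.65 under normexp on median signals and ran from -2.73 to 1.30 with single arrays left out. List medians turned for thermogenic genes (0.71) under normexp on median signals. Those of epithelial and mammary genes turned under both normexp settings (0.62 and 0.42) and the filter on all 12 arrays (0.82), and ran from -0.45 to 0.25 with single arrays left out, also turning without brown SVF replicate 1 (0.07). That of sex-linked genes ran from -2.42 to 0.96, the highest without inguinal SVF replicate 1. The cause of these shifts was not tested.

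Dim signal limits the low end of many calls: 53 of the 154 genes were above background on no brown adipocyte array. Low brown adipocyte values favour a call in this direction, so the count does not compare the groups.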
